A study of Rattus norvegicus with 6 samples.

Results

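The entries described here are genes annotated with the protein domain name Immunoglobulin V-set, subgroup, in H3K27me3 profiles of neonatal primary cardiomyocytes from Sprague Dawley rats. They are the entries of the union of the 4 deposited gene lists whose domain column holds exactly this name, and they number 229 of the 22427 entries that any library lists. Of the 229, 70 have a gene symbol and 159 are known in the lists by an Ensembl gene ID alone. The rule used the listing itself, since a gene that no library lists has no entry and cannot be a member. The entries nearest to that limit are the 48 listed in 1 library, and genes beyond it were not analysed here.

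H3K27me3, histone H3 trimethylated on lysine 27, is a repressive mark placed by Polycomb proteins, and was profiled by chromatin immunoprecipitation and sequencing. All cells grew on precoated plates in DMEM with serum, and were kept for 24 h with phosphate-buffered saline (PBS, the control) or with 5 mM α-ketoglutarate (α-KG), an intermediate of the tricarboxylic acid cycle that histone demethylases need as a cosubstrate. There were 2 control and 2 α-KG libraries, here control 1, control 2, α-KG 1 and α-KG 2, and 4 values given in library order follow that order. The 2 input samples were not analysed here. The deposited values name each gene with a peak and nothing more, so peak height, position and read depth are unknown, and an unlisted gene may lack the mark or lie below detection. Nothing in the labels says that replicates were separate cultures, so a p-value here measures the spread between these libraries, which may be technical.

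The V-set is the variable-type immunoglobulin fold, a sandwich of β-sheets held together by a disulfide bond. In antibodies and T cell receptors it forms the antigen-binding part, and it is encoded there by long arrays of closely related variable (V) gene segments, which recombine in lymphocytes. The same fold serves cell adhesion molecules, costimulatory receptors and their ligands, butyrophilins, myelin proteins and the link proteins of the extracellular matrix. Heart muscle cells use some of these molecules at their junctions, whereas V segments are not rearranged in them.

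The domain annotation of entries with and without a symbol overlapped but differed in its make-up. The second V-set name of the lists, Immunoglobulin V-set domain, was carried by 226 of the 229 entries. Names of the V-set and of the general immunoglobulin-like domain were the whole annotation for 67 of the 159 entries without a symbol and for 5 of the 70 with one. A further 91 entries without a symbol and 34 with one carried other immunoglobulin names but no other kind of domain. Names of other domain families appeared in 31 entries with a symbol and in 1 without, ENSRNOG00000049946, whose names are those of a butyrophilin. The link domain was found in 6 entries, fibronectin type III repeats in 7 and the CD80-like C2-set in 14, all with a symbol. Whether the entries without a symbol are V segments cannot be told from the lists, which give them no position.

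Regulatory sequence was looked up in RefSeq (build GRCr8, which is not the rn6 build named in the submitters' processing notes) by symbol. Of the 70 entries with a symbol, 53 matched a current symbol and 5 an older one, and 41 had a sequence before a RefSeq start. That start can lie within the annotated gene. For many of the 41, such as Ctla4, Robo1 and Ncam2, the window overlaps the RefSeq span of the gene. The sequences shown are those of F11r and Papln, which the α-KG pair alone listed, and of Ptgfrn and Skint4, which all 4 libraries listed. Each covers the 250 bases before the RefSeq start, 5′ to 3′ on the gene's strand, with CpG dinucleotides in capitals. Each of these windows lies outside the RefSeq span of its gene. CpG-rich sequence is the usual landing place of Polycomb complexes in mammals, which is why CpGs are marked. The peaks themselves have no position in the files, so none of these stretches is known to lie under a peak.
F11r, chr13:86405979-86406228, plus strand: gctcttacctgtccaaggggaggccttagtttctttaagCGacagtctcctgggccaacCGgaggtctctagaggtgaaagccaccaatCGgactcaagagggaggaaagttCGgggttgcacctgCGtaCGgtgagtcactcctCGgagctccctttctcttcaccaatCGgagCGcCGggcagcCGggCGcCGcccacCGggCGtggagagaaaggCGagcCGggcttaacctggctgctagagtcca
Papln, chr6:109129018-109129267, plus strand: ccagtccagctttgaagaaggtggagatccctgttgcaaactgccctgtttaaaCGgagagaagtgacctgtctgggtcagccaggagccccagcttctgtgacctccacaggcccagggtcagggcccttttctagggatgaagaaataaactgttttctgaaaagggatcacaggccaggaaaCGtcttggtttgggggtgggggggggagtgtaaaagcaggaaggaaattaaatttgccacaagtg
Ptgfrn, chr2:191233433-191233682, minus strand: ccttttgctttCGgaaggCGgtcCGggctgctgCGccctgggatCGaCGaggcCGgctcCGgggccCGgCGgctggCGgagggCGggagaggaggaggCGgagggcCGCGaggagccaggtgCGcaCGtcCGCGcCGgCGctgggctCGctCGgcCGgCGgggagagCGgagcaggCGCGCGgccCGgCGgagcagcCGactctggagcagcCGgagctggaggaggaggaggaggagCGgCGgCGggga
Skint4, chr5:132549046-132549295, plus strand: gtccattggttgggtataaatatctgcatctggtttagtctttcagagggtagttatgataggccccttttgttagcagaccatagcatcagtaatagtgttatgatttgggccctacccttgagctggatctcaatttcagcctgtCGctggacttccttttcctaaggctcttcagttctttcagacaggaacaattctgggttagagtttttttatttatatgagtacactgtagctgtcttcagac

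CpG content spanned a wide range. F11r has 17 CpGs in its stretch and Papln 2, although both were listed in the same libraries, while Ptgfrn has 36 and Skint4 has 1. Over the 25 genes in all 4 libraries with a sequence, the number ranged from 1 to 37 with a median of 13. Over the 5 genes that the α-KG pair alone listed it ranged from 2 to 17 with a median of 8 (Ctla4 8, Igsf3 10 and Mxra8 3 beside F11r and Papln), and over the 11 in other combinations from 0 to 18 with a median of 3. The median over 27457 RefSeq genes was 6 and their quartiles were 2 and 16. These are descriptions without a test, and the groups overlap. In each group, windows that overlap the RefSeq span of the gene are mixed with windows outside it. The windows of Ctla4, Igsf3 and Mxra8 overlap it.

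**Figure D1:**
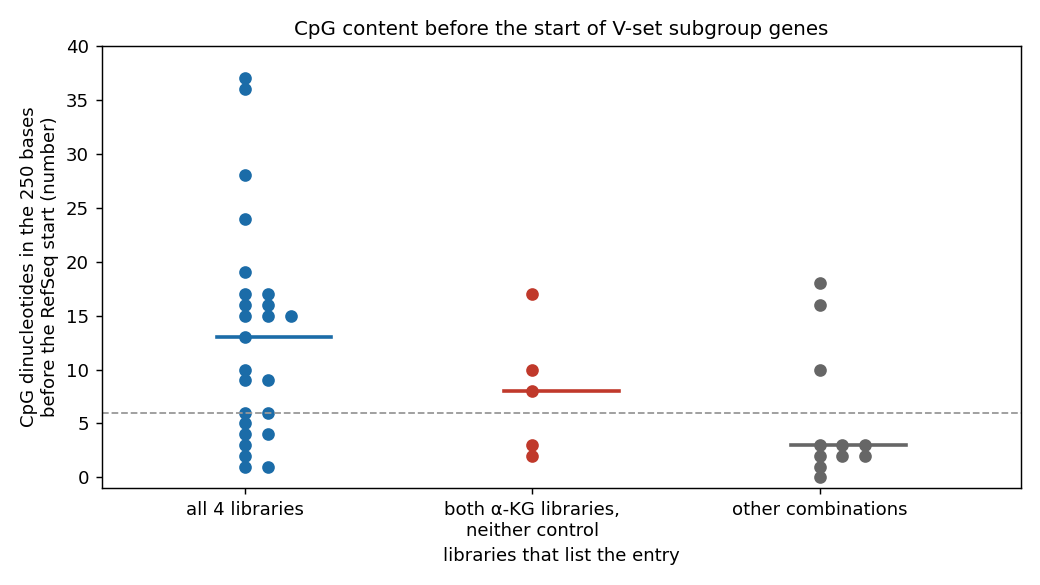
Number of CpG dinucleotides in the 250 bases before the RefSeq start (y axis) for 41 V-set subgroup genes, grouped by the libraries that list them; each point is a gene, bars are medians (13, 8 and 3) and the dashed line is the median of 27457 RefSeq genes (6). Genes listed in all 4 libraries span almost the whole range, from 1 to 37. For many genes the stretch overlaps the RefSeq span of the gene.

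A second feature was searched in the same windows, the octamer ATGCAAAT, which is known from the promoters of immunoglobulin V segments. Both strands were searched, so that ATTTGCAT also counts. It was found in 2 of the 41 windows, against 1.5% of all 27457. One match lay in the window of Vpreb3, part of the surrogate light chain family of early B cells and listed in control 2 alone. The other lay in that of Skint1, of a family that selects T cells of the skin, listed in control 1 and α-KG 1. Both windows overlap the RefSeq span of their gene, so the matches may not lie upstream of the whole gene. The 30 bases around each match are shown with the octamer in capitals.
Vpreb3, chr20:12718264-12718293, minus strand: tcagtgggctgATTTGCATgctctgttgtg
Skint1, chr5:132014828-132014857, plus strand: tcctggctcccATTTGCATctgacatatac

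Before the treatment comparison, α-KG 2 stands apart. It listed the most entries of any kind, 85.5% of all 22427, where control 1 listed 76.9%, control 2 82.2% and α-KG 1 80.8%. For V-set subgroup entries the order was different, and α-KG 2 listed the fewest: 144 of 229 were listed in control 1, 163 in control 2, 172 in α-KG 1 and 128 in α-KG 2. Means were 153.5 ± 13.4 entries with PBS and 150.0 ± 31.1 with α-KG (SD, n = 2 each), a difference of -3.5. The exact permutation test, two-sided, had p = 1.0, and the lowest p that 2 libraries a group allow is 0.3333. Without α-KG 2 the difference was 18.5 and without control 2 it was 6.0, so its sign rests on single libraries.

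The low count in α-KG 2 lay in the entries without a symbol. Of these 159, control 1 listed 93 (58.5%), control 2 108 (67.9%), α-KG 1 113 (71.1%) and α-KG 2 68 (42.8%). Means were 100.5 ± 10.6 with PBS and 90.5 ± 31.8 with α-KG (SD, n = 2 each), with p = 1.0 by the exact permutation test, and the control values lay between the α-KG ones. Without α-KG 2 the difference of -10.0 became 12.5. The 4930 other entries without a symbol were listed as a whole at 81.3%, 83.3%, 83.2% and 80.6%, in library order. There too α-KG 2 was the lowest, but within a narrow range. Among them, however, the 48 with another immunoglobulin name were listed in 36, 38, 41 and 28 cases (58.3% in α-KG 2), and 22 of these 48, which carry a V-set name, at 50.0%, 68.2%, 77.3% and 36.4%. In both of these related sets α-KG 2 was the lowest library and α-KG 1 the highest, as in the V-set subgroup. The low value in α-KG 2 was thus also seen in related entries outside the V-set subgroup.

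Entries with a symbol showed another order. Control 1 listed 51 of 70 (72.9%), control 2 55 (78.6%), α-KG 1 59 (84.3%) and α-KG 2 60 (85.7%). Both α-KG libraries thus lay above both controls, with means of 53.0 ± 2.83 and 59.5 ± 0.707 entries (SD, n = 2 each) and a difference of 6.5. The exact permutation test gave p = 0.3333, the smallest this design allows. With 2 libraries a group, the test cannot decide whether the difference exceeds the spread between libraries. The other 17268 entries with a symbol were listed at 75.8%, 82.1%, 80.2% and 87.3% in the same order, where control 2 lay above α-KG 1.

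**Figure D2:**
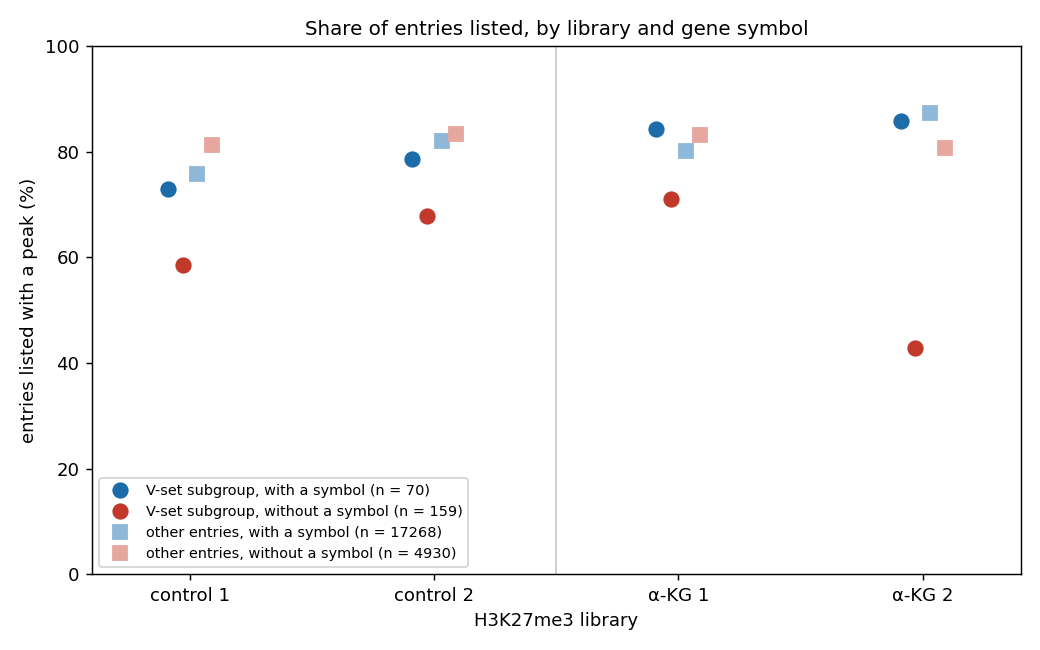
Share of entries listed with a peak (y axis, %) in each of the 4 libraries (x axis) for V-set subgroup entries with (70) and without (159) a symbol and for the other entries with (17268) and without (4930) one; each point is 1 library. Entries of the V-set subgroup without a symbol lie below the other 3 sets in every library and lowest in α-KG 2, at 42.8%.

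The distance between the listed shares of the 2 kinds was present in every library and was widest in α-KG 2. Its difference between the treatment groups rested on that library. The share with a symbol exceeded the share without by 14.4 percentage points in control 1, 10.6 in control 2, 13.2 in α-KG 1 and 42.9 in α-KG 2. The mean distance was 12.5 ± 2.63 points in control and 28.1 ± 21.0 in α-KG (SD, n = 2 each; exact permutation p = 0.667). The difference of 15.6 points between the groups was 0.71 without α-KG 2 and 30.4 without α-KG 1.

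The split by symbol was also seen within one kind of domain annotation. Among entries with further immunoglobulin names and no other domain, α-KG 2 listed 38 of 91 without a symbol (41.8%) and 27 of 34 with one (79.4%). In control 1, control 2 and α-KG 1 the entries of this kind without a symbol were listed at 54.9%, 60.4% and 70.3%, and those with one at 67.6%, 76.5% and 79.4%. Entries with V-set names alone and no symbol were listed at 62.7%, 79.1%, 71.6% and 43.3%, in library order. Entries with a symbol and names of other domains reached 77.4% in both controls, 87.1% in α-KG 1 and 93.5% in α-KG 2. For both of these kinds without a symbol, α-KG 2 was the lowest of the 4 libraries.

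**Figure D3:**
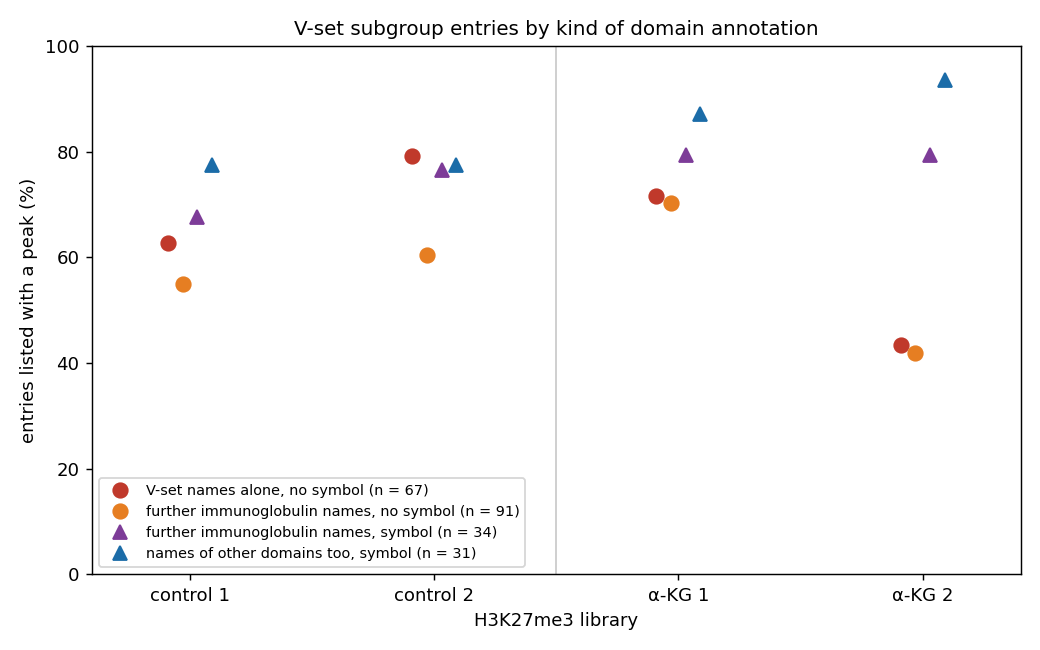
Share of V-set subgroup entries listed (y axis, %) in each library (x axis) by kind of domain annotation and presence of a symbol; circles are entries without a symbol (67 and 91) and triangles entries with one (34 and 31). The 2 sets without a symbol lie at 43.3% and 41.8% in α-KG 2, and the 2 sets with a symbol at 79.4% and 93.5%.

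Lost entries, meaning those that the control pair alone listed, were all without a symbol. Of the 78 entries without a symbol in both controls 17 were lost (21.8%), and of the 45 with a symbol 0 were. Over all entries 3.22% of those in both controls were lost, over other entries without a symbol 3.69% and over other entries with a symbol 2.98%. At that last share, 45 entries hold few lost ones in any case, so 0 of 45 does not set the entries with a symbol apart. Examples of lost entries are ENSRNOG00000031024 and ENSRNOG00000038293. By annotation, 8 of the 17 carried V-set names alone and 9 carried further immunoglobulin names.

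The number lost depended on the libraries that had to agree. For entries without a symbol it was 28 of 108 (25.9%) without control 1, 22 of 93 (23.7%) without control 2, 43 of 78 (55.1%) without α-KG 1 and 21 of 78 (26.9%) without α-KG 2. Other entries without a symbol had 6.43%, 6.29%, 11.6% and 7.17% in the same settings. The entries of the V-set subgroup thus had the higher share in each of the 4 settings, and most of all where α-KG 2 stood alone for the treatment. For entries with a symbol it was 4 of 55 (7.27%) without control 1, 0 of 51 without control 2, 3 of 45 (6.67%) without α-KG 1 and 1 of 45 (2.22%) without α-KG 2, beside 5.14%, 4.81%, 7.35% and 6.47% of other entries with a symbol. These counts are too small to set them apart from the other entries. The 3 without α-KG 1 were Mog, Vsig4 and Ighv13-1, which α-KG 1 and both controls listed and α-KG 2 did not.

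Gained entries, meaning those that the α-KG pair alone listed, included 6 with a symbol and 11 without. The 6 were 11.3% of the 53 entries with a symbol in both α-KG libraries, and the 11 were 20.0% of the 55 without. Over all entries 4.48% were gained, over other entries with a symbol 4.52% and over other entries without a symbol 3.97%. Both shares of the V-set subgroup rest on few entries. The order of the 2 kinds depended on the denominator: of the entries in any library, 8.57% with a symbol and 6.92% without were gained, beside 3.25% over all entries. On that denominator 10.7% of entries without a symbol were lost, beside 2.3% over all entries. Ctla4 encodes an inhibitory receptor of T cells that competes for the B7 ligands, and F11r encodes junctional adhesion molecule A of tight junctions. Ncam1 encodes the neural cell adhesion molecule, Papln the matrix protein papilin, and Mxra8 and Igsf3 encode cell surface proteins with V-type domains. Each of these 6 was listed in α-KG 1 and α-KG 2 and in neither control 1 nor control 2. Examples without a symbol are ENSRNOG00000006333 and ENSRNOG00000009016.

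The gained counts also moved with single libraries. Entries without a symbol gained 17 of 55 (30.9%) without control 1, 18 of 55 (32.7%) without control 2, 16 of 68 (23.5%) without α-KG 1 and 31 of 113 (27.4%) without α-KG 2. Other entries without a symbol had 6.89%, 9.05%, 8.3% and 6.85%. Entries with a symbol gained 10 of 53 (18.9%), 8 of 53 (15.1%), 9 of 60 (15.0%) and 6 of 59 (10.2%), beside 6.63%, 11.7%, 12.8% and 6.25% of other entries with a symbol. These shares rest on 6 to 10 entries, and lay nearest to the other entries without control 2 and without α-KG 1. Such counts are too small to set the entries with a symbol apart. Entries without a symbol thus had shares above those of other entries without one in both directions, lost and gained, while 19.5% were in all 4 libraries. Of the 48 other entries with an immunoglobulin name and no symbol, 1 of 33 in both controls was lost (3.03%). In the same set 1 of 25 in both α-KG libraries was gained (4.0%). That set is small, so its shares are uncertain.

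Listing in all 4 libraries separated the 2 kinds as well. It was found for 41 of 70 entries with a symbol (58.6%) and for 31 of 159 without (19.5%), beside 63.1% of other entries with a symbol and 63.0% of others without one. Over all entries the share was 62.8%. It was 45.8% for the 48 other entries with an immunoglobulin name and no symbol, and 22.7% for the 22 of them with a V-set name. A low share was thus also seen in related entries outside the V-set subgroup. A single library listed 41 of the 159 entries without a symbol (25.8%) and 7 of the 70 with one (10.0%), against 13.0% of all entries. Among the 41, 20 were in α-KG 1 alone, 11 in control 2 alone, and 5 each in control 1 and α-KG 2 alone. For all entries the library that most often stood alone was α-KG 2, with 6.96%, where α-KG 1 had 2.03%. Related entries were closer to the V-set subgroup. Of the 48 other entries with an immunoglobulin name and no symbol, 18.8% were in a single library and 12.5% in α-KG 1 alone. For the 22 of them with a V-set name these shares were 36.4% and 27.3%, beside 25.8% and 12.6% of the 159. Neither share thus set the V-set subgroup apart from them. Entries without a symbol that the 3 other libraries listed and α-KG 2 did not numbered 26 (16.4%), against 5.86% of other entries without a symbol. The share was 16.7% (8 of 48) for other entries with an immunoglobulin name and no symbol, and so did not set the V-set subgroup apart from them.

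**Figure D4:**
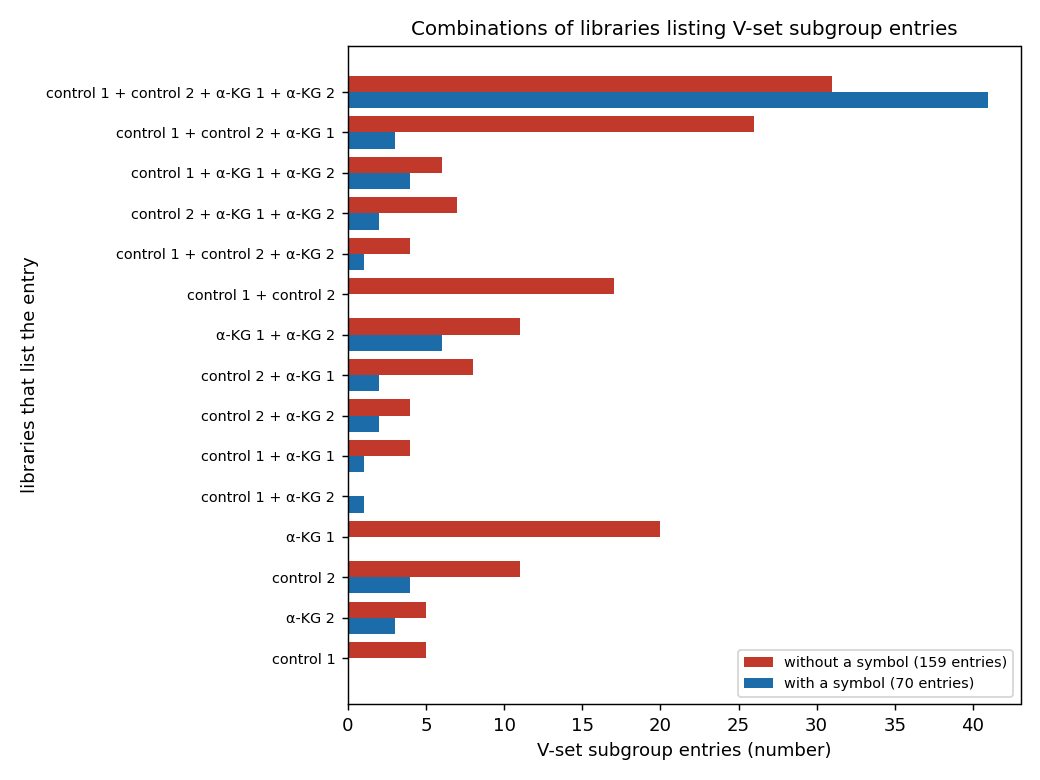
Number of V-set subgroup entries (x axis) for each combination of libraries that list them (y axis), without (159) and with (70) a symbol. Listing in all 4 libraries is the most frequent combination for both, with 31 and 41 entries, and the next for entries without a symbol are the 3 libraries other than α-KG 2 (26) and α-KG 1 alone (20).

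Antigen receptor genes with a symbol were few and varied between libraries. The Ighv and Trav symbols, which name V segments of the antibody heavy chain and the T cell receptor α chain, numbered 5. Trav3-3 was listed in all 4 libraries, Trav19 in all but control 1, Ighv13-1 in all but α-KG 2, Trav5-4 in control 2 and α-KG 1, and Trav4-2 in control 2 alone. Control 2 listed all 5, α-KG 1 listed 4, and control 1 and α-KG 2 listed 2 each. RGD1564212, which RefSeq now names Trav12-3, was listed in α-KG 2 alone. Reads of near-identical V segments can be split among copies, so the state of 1 segment is uncertain.

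Surrogate light chain genes, which pair with the antibody heavy chain in precursor B cells, numbered 3. Vpreb2 was listed in all 4 libraries, and Vpreb1 and Vpreb3 were listed in control 2 alone. The symbols with the provisional prefix RGD numbered 7, and RGD1564184, RGD1565252 and RGD1565617 were in all 4 libraries. RGD1559916 and RGD1563231 were listed in all but control 2, and RGD1559732 in control 2 alone. The remaining 55 symbols were listed in 43, 43, 49 and 51 cases, in library order, and 36 of them (65.5%) were in all 4. That share was near the 62.8% over all entries.

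T cell surface genes held both members in all 4 libraries and members that differed between libraries. Cd8b, a coreceptor chain for class I major histocompatibility molecules, and Thy1, a small glycoprotein of T cells and neurons, were listed in all 4 libraries. Cd4, the coreceptor for class II molecules, was listed in all but control 1. With the Vpreb genes these make 6 members on the list of T cell and lymphocyte surface molecules, of which control 1 listed 3, control 2 6, and both α-KG libraries 4. The 21 entries of that list outside the V-set subgroup were listed 14, 17, 16 and 15 times, with 11 in all 4 libraries, 0 lost and 1, Cd3d, gained.

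Of the costimulatory genes and butyrophilins, 5 of 8 were in all 4 libraries (62.5%), near the 62.8% over all entries. The B7 ligand genes Cd86, Icoslg and Cd276 and the butyrophilin genes Btn2a2 and Btnl3 were those 5. Btn1a1, the butyrophilin of milk fat, was listed in all but control 2, Btnl8 in control 1 and α-KG 2, and Ctla4 in both α-KG libraries. The 8 members were listed 7, 5, 7 and 8 times, in library order. Of 8 related genes outside the V-set subgroup, 4 were in all 4 libraries, and Pdcd1lg2, the gene of the ligand PD-L2, was lost. The receptor gene Cd28, to whose ligands Ctla4 also binds, was listed in both controls and α-KG 1.

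Of the tight junction proteins of the CTX family and their relatives, 7 of 10 were in all 4 libraries. The share over all entries was 62.8%, and 10 members are too few to set the family apart. Cxadr, the coxsackievirus and adenovirus receptor of cardiac intercalated discs, and Jam2, Jam3, Clmp, Amica1 and Vsig10, which encode adhesion proteins of the same family or related ones, were in all 4 libraries, as was Vsig8. F11r was in both α-KG libraries, Vsig2 in all but α-KG 1, and Vsig4, a complement receptor of macrophages, in all but α-KG 2. The 10 members were listed 9 times in each library. In that count the gain of F11r in α-KG was offset by Vsig2 in α-KG 1 and by Vsig4 in α-KG 2.

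Of the matrix link proteins and their proteoglycan partners, 5 of 6 members were in all 4 libraries. The share over all entries was 62.8%, and 6 members are too few to set this list apart. Acan and Bcan, the proteoglycans aggrecan and brevican that bind hyaluronan, and Hapln1, Hapln2 and Hapln3, which lock such complexes together, were in all 4 libraries. Hapln4 was listed in control 2 and α-KG 2. Ncan and Vcan, on the same list but outside the V-set subgroup, were in all 4 as well, so 7 of the 8 entries were. On the list of myelin and sodium channel beta subunit genes, the adhesion protein genes Mpzl1, Mpzl2 and Mpzl3 were in all 4 libraries, and Mog, a protein of the myelin surface in the brain, was missing from α-KG 2 alone. The 4 sodium channel β subunit genes on that list, none of them a member, were in all 4 libraries.

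Nectins, neural receptors and immune receptors completed the named entries. Pvrl1 (now Nectin1) was in all 4 libraries, PVR, the poliovirus receptor gene, in control 2 and α-KG 2, and Pvrl2 (Nectin2) in α-KG 2 alone. The axon guidance receptor genes Robo1 and Robo2, the tetraspanin partner gene Ptgfrn and the leukocyte gene Igsf6 were in all 4, and Igsf3, on the same list, was gained. Pigr, which carries polymeric antibodies across epithelia, was listed in control 2 and α-KG 1, and Cd200, an inhibitory ligand of myeloid cells, in all 4. Skint1 was listed in control 1 and α-KG 1, and its relative Skint4 in all 4. Of the members on no list, the neural adhesion genes Dscam, Dscaml1 and Ncam2, the synaptic leucine-rich repeat gene Lrrc4c, and Hmcn1 and Pxdn, which encode the matrix proteins hemicentin and peroxidasin, were in all 4 libraries, and Igsf10 was in all but control 2. Ncam2 and its relative Ncam1, which was gained, thus differed in both controls.

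**Figure D5:**
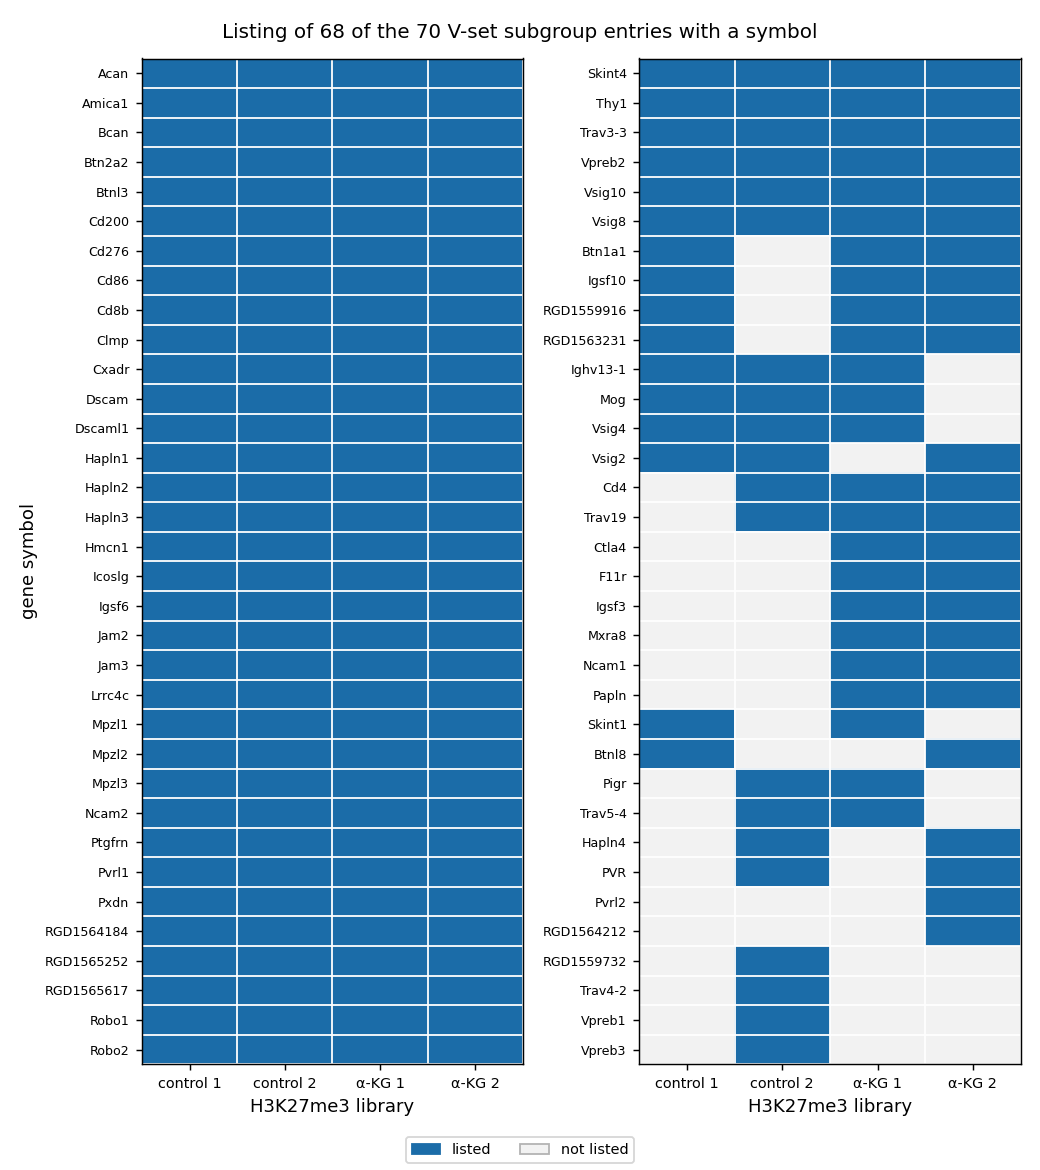
Listing (filled) of 68 of the 70 V-set subgroup entries with a symbol (y axis) in each library (x axis), ordered by the number of libraries. Of these, 40 are in all 4 libraries, and 6 (Ctla4, F11r, Igsf3, Mxra8, Ncam1 and Papln) were listed by the α-KG pair alone.

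Genes that work with antigen receptors but have no V-set subgroup domain were counted in the same way. Of the 33 genes for receptor signalling, recombination and lymphocyte fate, 29 had an entry, and 24, 27, 26 and 24 of them were listed, in library order. In all 4 libraries were 20 of the 29, among them Cd79b, which transmits signals of the B cell receptor, and Lck and Zap70, kinases of the T cell receptor. Btk, a B cell kinase, was the 1 lost of 23 in both controls, and Cd3d, a chain of the T cell receptor complex, the 1 gained of 24 in both α-KG libraries. Over all entries 62.8% were in all 4 libraries. Of those in both controls 3.22% were lost, and of those in both α-KG libraries 4.48% were gained. Counts of 1 are too small to set these genes apart. The recombinase genes Rag1 and Rag2 were listed in control 1 alone and control 2 alone. Cd79a and Cd3e had no entry.

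Markers of cell types are given beside these counts, since the cultures could hold other cells. Of 7 cardiomyocyte markers with an entry, each library listed 5, and Tnni3 was in α-KG 1 alone, Myh7 in α-KG 2 alone and Ryr2 in both controls, while Myh6 had no entry. T cell markers were listed 4, 6, 7 and 7 times of 7 entries in library order, B cell markers 5, 5, 4 and 4 of 6, and myeloid markers 3, 4, 2 and 4 of 5. Fibroblast markers had 5, 5, 4 and 5 of 5 entries and endothelial markers 3, 5, 4 and 4 of 5, and Ptprc, common to leukocytes, was in all 4 libraries. Of all entries the libraries listed 76.9%, 82.2%, 80.8% and 85.5%, in the same order. The marker lists are too short to set a cell type apart from these shares. Which cells a peak came from cannot be read from a marker gene, and the part of cell mixture in the counts was not tested.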

How the data were processed

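The data are 4 lists of genes with an H3K27me3 peak, 1 for each library, which the authors deposited without header, count, score or position. Each line holds an Ensembl gene ID, a symbol and protein domain names. CASAVA, BWA and MACS2 and the build rn6 appear, without roles or versions, in the submitters' processing notes. The rule tying peaks to genes and the use of an input are not given in these sources. Depth is unknown, so no interval that needs it was computed.

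Lists were joined by gene ID with Python 3.11.15, pandas 2.3.3 and numpy 2.4.6, and figures drawn with matplotlib 3.10.9. Groups and replicate numbers come from the labels. An entry listed by the control pair alone was called lost, and one listed by the α-KG pair alone gained. Numbers listed per library were compared by exact permutation of the libraries, two-sided. Counts carry no p-value, because entries are not replicates. Names for the text were chosen by rule: symbols lost, gained or in 1 library, and, per role list, members not in all 4 libraries and up to 6 that were. A few others are named after their values were seen, among them Vsig8, members on no role list, the Ighv and Trav symbols, the RGD symbols, the partner genes and the markers, and the kinds of domain annotation and the promoter features were also chosen then. The members and lists were chosen with earlier results of these data known. Some members with a symbol are not reported here. RefSeq gave no Ensembl IDs, so entries without a symbol have no name here. The code that calls lost and gained entries was run on simulated lists with planted entries, and the permutation code on separated groups. That checks the code alone, and the other steps were not tested so.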

Additional observations from a re-analysis of the deposited data

How the results depend on the processing

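Every difference between treatments rests on 2 against 2 libraries of unknown depth, and no setting could bring a p below 0.3333. Without 1 library, the difference in V-set subgroup entries listed (α-KG minus control) ranged from -25.5 to 18.5, reversing without control 2 (6.0) and without α-KG 2 (18.5); for entries without a symbol it ranged from -32.5 to 12.5, reversing when α-KG 2 was left out. For these reversals the cause was not tested. The difference for entries with a symbol ranged from 4.5 to 8.5, and that between the shares of the 2 kinds from 0.71 to 30.4 points. Lost entries ranged from 22 to 46 (0 to 4 with a symbol, 21 to 43 without), gained entries from 25 to 37 (6 to 10 with, 16 to 31 without) and entries in all libraries used from 77 to 101, since fewer libraries then had to agree. With any V-set name in place of the exact subgroup name, 174 entries were in all 4 libraries and 1 with a symbol was lost, and the other 9 results kept their direction or stayed within 1.5 times. The difference for entries with a symbol was then 8.5, with p = 0.6667 by the exact permutation test. Both α-KG libraries thus no longer lay above both controls. The difference between the shares of the 2 kinds was 9.83 points in place of 15.6. With all entries in any library as the denominator, the share gained among entries without a symbol was 6.92% in place of 20.0%, below the 8.57% with a symbol, and the share lost 10.7% in place of 21.8%; over all V-set subgroup entries both were 7.42%, in place of 13.8% lost and 15.7% gained, since the denominator then holds more entries. Counting each symbol once left all 11 results as they were. With replicate numbers as pairs (replicate block), the mean differences were -3.5 entries, -10.0 without a symbol and 6.5 with one, as without pairing; α-KG 1 minus control 1 was 20 entries without a symbol and α-KG 2 minus control 2 was -40. The numbers are not known to pair the libraries: the deviations of same-numbered libraries had a correlation of 0.0478 across 22427 entries, which share libraries. A RefSeq name in place of the symbol column was not run, because that table gave no Ensembl IDs.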

Other observations

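Entries with a V-set name but without the subgroup name numbered 163, of which 141 had a symbol and 22 had none. Those with a symbol were listed at 81.6%, 87.9%, 88.7% and 83.7% in the order control 1, control 2, α-KG 1, α-KG 2, and 97 of them (68.8%) were in all 4 libraries. Those without were listed at 50.0%, 68.2%, 77.3% and 36.4%, and 5 (22.7%) were in all 4. The order of the libraries among these 22 entries was thus that of the 159 V-set subgroup entries without a symbol, with α-KG 2 lowest and α-KG 1 highest. Over the 163, lost and gained entries were 2 of 117 (1.71%) and 2 of 116 (1.72%). Genes with the I-set domain and no V-set subgroup name, many of them adhesion proteins, numbered 166, and 136 (81.9%) were in all 4 libraries, against 62.8% over all entries. Genes with the C1-set domain, the constant-type fold of antibodies and of major histocompatibility molecules, numbered 57, with 29 (50.9%) in all 4. Of these, 3 of 37 (8.11%) were lost and 5 of 38 (13.2%) gained, both above the 3.22% and 4.48% over all entries. These sets were chosen after the data were seen, and no test was made.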
